A study of Homo sapiens with 12 samples.

Results

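The genes described here encode the subunits of Mediator and Integrator, a pair of multiprotein complexes that act on RNA polymerase II. They were taken as the protein-coding genes of GENCODE v29 whose symbols are MED or INTS followed by a number, MED12L and MED13L included, together with the kinase-module genes CDK8, CDK19 and CCNC. This gave 47 genes, 33 of Mediator and 14 of Integrator, out of 19678 protein-coding genes with a row in the table of counts. The symbol INTS15 is not in that annotation. All 47 had at least 1 count, and 46 passed the filter on low counts. The exception was MED12L, a kinase-module paralogue with 30 counts over all libraries.

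The cells were THP-1, an established human acute monocytic leukaemia line. They were exposed for 2 h to DMSO, the vehicle, or to AZ5576, an inhibitor of CDK9, THZ531, a covalent inhibitor of CDK12 and CDK13, or YKL5124, a covalent inhibitor of CDK7. All 4 groups, the vehicle included, received 1 mM 4-thiouridine in the final 10 min, and each group had 3 libraries of 3' end reads (SLAMseq). The values below are total counts, in which labelled and older transcripts are summed, so an RNA that was already present at the start of treatment is counted with RNA made during it. The sources used here give no doses, and nothing in them says that replicates came from separate cultures. The p-values therefore speak only of the spread among these 12 libraries, part of which may be technical. The 3 vehicle columns carry the letters UT, which the sample labels do not use. Since the labels assign the table to all 12 samples and the other 9 columns match the inhibitor samples by name, these 3 were read as DMSO.

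Mediator bridges transcription factors bound at enhancers and the polymerase at the promoter. Its core consists of a head, a middle and a tail held together by the MED14 subunit, and a separable kinase module, made of CDK8 or CDK19, cyclin C, MED12 or MED12L, and MED13 or MED13L, binds the core reversibly. Integrator binds polymerase paused near promoters, cuts the nascent transcript through its endonuclease INTS11 and removes phosphate from the polymerase through an associated PP2A phosphatase, and it also forms the 3' ends of small nuclear RNAs. CDK7, CDK9, CDK12 and CDK13, the targets of these inhibitors, phosphorylate the polymerase or the factors that travel with it.

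Libraries held 5048321 to 12743576 human counts when 1 row was kept per gene, the lowest being AZ5576 replicate 2. Of 8 myeloid markers, 7 were at or above 1 CPM (library-scaled counts) in every library, among them ELANE, CTSG, CD68 and SPI1, and MPO came close, from 0.989 CPM. Their summed level was 760 to 804 CPM with DMSO, 961 to 1044 with AZ5576, 1053 to 1111 with THZ531 and 872 to 947 with YKL5124, and the part of this shift in the results below was not tested. The 8 markers of other cell types reported here stayed below 1 CPM in every library, and CD3E, HBG1 and GATA1 were at 0 throughout. The summed level of the 8 was 0 to 0.37 CPM with DMSO, 0.791 to 0.833 with AZ5576, 0.33 to 0.534 with THZ531 and 0 to 0.242 with YKL5124. Counts of Drosophila transcripts were 2.83% to 3.73% of the human counts over all rows. Values in CPM below were scaled by the trimmed mean of M-values (TMM), which sets the bulk of genes to no change. When libraries were scaled to the Drosophila counts instead, the median log2 fold change of all genes moved to -0.17 with AZ5576, -0.37 with THZ531 and -0.07 with YKL5124. The share of called genes that were higher then fell from 44.7% to 10.3%, from 48.0% to 13.2% and from 34.9% to 21.1%. Scaling to library size alone gave medians of -0.12, -0.29 and -0.02 and shares of 21.9%, 23.2% and 30.1%. All directions below are therefore relative to the bulk of genes in the same libraries.

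THZ531 changed the most members. A gene was called when its adjusted p in edgeR's quasi-likelihood test was under 0.05 over all 15831 genes tested. With THZ531, 15 Mediator genes were higher and 12 lower of 32 tested (84.4% called), and 3 Integrator genes were higher and 7 lower of 14 (71.4%). In that comparison 63.4% of all genes were called, 30.4% higher and 32.9% lower. The median log2 fold change was 0.14 for Mediator and -0.52 for Integrator, beside 0.00 for all genes tested. Among the higher genes, MED17 and INTS10 rest on rows chosen by totals that include the THZ531 libraries, as described below. The libraries are bulk, so that fewer cells of a type and less RNA per cell cannot be told apart.

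With AZ5576, 6 Mediator genes were higher and 11 lower (53.1% called), and 2 Integrator genes were higher and 3 lower (35.7%). The background was 41.7% of all genes, 18.6% higher and 23.1% lower. The medians were -0.11 for Mediator and -0.08 for Integrator, against 0.01 for all genes tested. With YKL5124, 2 Mediator genes were higher and 9 lower (34.4%), and 2 Integrator genes were lower and none higher (14.3%). The background there was 20.8%, with 7.25% higher and 13.5% lower. The medians were -0.12 and 0.00, against 0.00 for all genes. Scaled to Drosophila counts, the Mediator counts of higher genes became 0 with AZ5576, 6 with THZ531 and 0 with YKL5124, and those of Integrator 0, 1 and 0. The lower genes then numbered 15, 14 and 9 in Mediator and 5, 9 and 2 in Integrator. Of all 15831 genes, 517, 1116 and 530 were higher and 4516, 7354 and 1985 lower under that scaling, in the same order of inhibitors. The rises that lost their call under that scaling were, with AZ5576, those of CDK19, MED12, MED13L, MED24, MED25, MED27, INTS1 and INTS11, with THZ531, those of CCNC, MED6, MED10, MED12, MED13L, MED23, MED24, MED28, MED30, INTS11 and INTS12, and with YKL5124, those of MED13L and MED27. With TMM scaling, single libraries decided some of the small counts: without AZ5576 replicate 1, 3 Mediator genes were higher with AZ5576, without AZ5576 replicate 3 no Integrator gene was, and without DMSO replicate 2 or 3 or YKL5124 replicate 2 no Mediator gene was higher with YKL5124. That last count was 1 without DMSO replicate 1, AZ5576 replicate 1 or YKL5124 replicate 1 or 3, and the Integrator count with AZ5576 was 1 without DMSO replicate 1 or 2 or AZ5576 replicate 1.

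**Figure D1:**
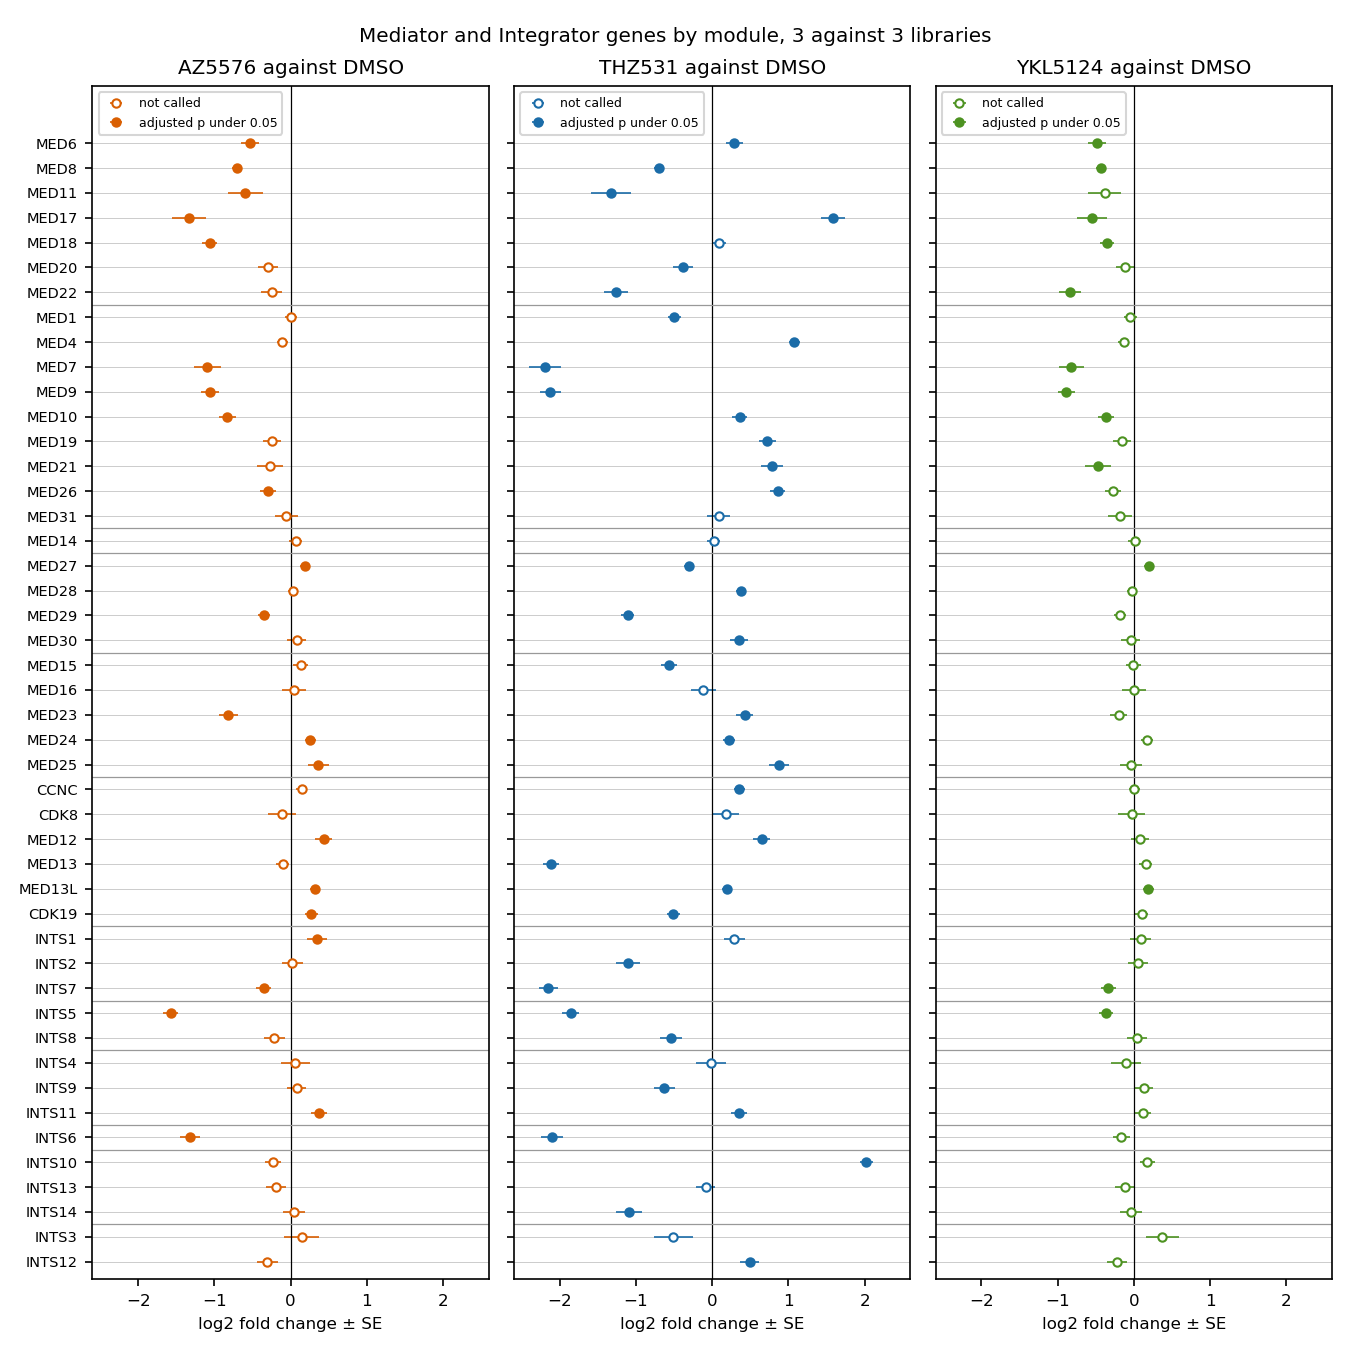
Log2 fold change of the 46 tested members in each inhibitor against DMSO (x axis, log2 units; bars are standard errors from the fit, 3 against 3 libraries), with genes on the y axis grouped by module between grey lines: Mediator head, middle, scaffold, upper tail, tail and kinase module, then Integrator backbone, shoulder, cleavage, phosphatase, auxiliary and other. Filled points passed an adjusted p of 0.05. MED7, MED9 and INTS5 lie left of 0 in all 3 panels, while MED17 and INTS10 lie far to the right only in the THZ531 panel. The rows plotted for MED17 and INTS10 were chosen by totals that include the THZ531 libraries.

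The Mediator head, which contacts the polymerase, was lower or uncalled with AZ5576 and YKL5124. With AZ5576, 5 of its 7 genes were lower and none was higher, and with YKL5124 the counts were again 5 and none. With THZ531, 2 were higher and 4 lower. With RLE in place of TMM scaling, 4 head genes were lower with YKL5124. Beside these and the module counts below, 18.6% of all genes were higher and 23.1% lower with AZ5576. The shares were 30.4% and 32.9% with THZ531, and 7.25% and 13.5% with YKL5124. MED18, a subunit of the movable jaw of the head, was measured at 31.9, 31.3 and 32.3 CPM in the DMSO libraries, at 16.1, 13.3 and 15.5 with AZ5576, at 34.4, 34.2 and 33.2 with THZ531 and at 21.8, 27.7 and 24.8 with YKL5124. The AZ5576 libraries were the lowest, the YKL5124 libraries lay between them and DMSO, and the THZ531 libraries lay just above DMSO, with no overlap. Its log2 fold change, given here and below with its standard error, was -1.06 ± 0.10 (adjusted p = 5.00e-10) with AZ5576, -0.35 ± 0.09 (adjusted p = 0.00481) with YKL5124 and 0.09 ± 0.09 (adjusted p = 0.37) with THZ531.

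MED22, another head subunit, showed a different order and was measured at 15.7, 16.9 and 15.3 CPM in the DMSO libraries, at 12.3, 16 and 13.2 with AZ5576, at 5.59, 5.72 and 8.43 with THZ531 and at 6.78, 10.4 and 9.14 with YKL5124. The AZ5576 libraries overlapped DMSO, and both other groups lay below it. The log2 fold change was -0.84 ± 0.14 (adjusted p = 5.47e-05) with YKL5124 and -1.26 ± 0.16 (adjusted p = 4.06e-08) with THZ531. MED8, which joins the rest of the head to MED18 and MED20, was measured at 197, 196 and 204 CPM in the DMSO libraries, at 123, 117 and 125 with AZ5576, at 119, 118 and 130.0 with THZ531 and at 149, 140.0 and 154 with YKL5124. Every inhibitor library was below every DMSO library. Its fall was -0.71 ± 0.06 (adjusted p = 2.04e-10) with AZ5576, -0.70 ± 0.06 (adjusted p = 6.74e-11) with THZ531 and -0.43 ± 0.06 (adjusted p = 4.15e-06) with YKL5124. MED11 was lower with AZ5576 (-0.59) and THZ531 (-1.33), the first of these lost when DMSO replicate 2 or 3 or any AZ5576 library was left out (log2 fold change -0.69 to -0.50 over all libraries left out). MED20 was lower with THZ531 alone of the 3 (-0.39), a call lost without DMSO replicate 3 (adjusted p = 0.0774).

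MED17, the central scaffold of the head (chr11:93784227-93814963, plus strand), went in opposite directions. It was measured at 4.59, 5.13 and 4.16 CPM in the DMSO libraries, at 1.83, 1.58 and 1.92 with AZ5576, at 13.5, 13.5 and 14.4 with THZ531 and at 3.15, 4.00 and 2.33 with YKL5124. The 3 THZ531 libraries were the highest of the 12 and the AZ5576 libraries the lowest, with no overlap among these groups and DMSO. The fitted log2 change was 1.59 ± 0.16 (adjusted p = 4.05e-10) with THZ531, -1.33 ± 0.22 (adjusted p = 1.69e-05) with AZ5576 and -0.55 ± 0.20 (adjusted p = 0.0423) with YKL5124. The YKL5124 call was lost when DMSO replicate 1 or 2, any THZ531 library or YKL5124 replicate 1 or 3 was left out (highest adjusted p 0.292). The counted row for MED17 belongs to a transcript that ends inside the gene, and the THZ531 rise did not appear at the row of the gene's 3' end, as described below with the other rows. MED6, a head subunit next to the middle module, was also lower with AZ5576 (-0.53) and YKL5124 (-0.49) and higher with THZ531 (0.29), the rise being lost without DMSO replicate 2 or 3 or THZ531 replicate 1 or 3 and turning to -0.07 under Drosophila scaling.

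The Mediator middle, which links the head and the tail, held the deepest falls of the complex with THZ531 beside several rises. Of 9 genes, 5 were higher and 3 lower with THZ531, 4 lower and none higher with AZ5576, and 4 lower and none higher with YKL5124. MED7, a hinge subunit of the module (chr5:157137412-157159019, minus strand), was measured at 9.17, 7.22 and 7.85 CPM in the DMSO libraries, at 3.91, 3.16 and 4.00 with AZ5576, at 2.08, 1.54 and 1.71 with THZ531 and at 3.87, 5.49 and 4.32 with YKL5124. Every inhibitor library was below every DMSO library, and the THZ531 libraries were the lowest. Its log2 fold change was -2.20 ± 0.21 (adjusted p = 2.80e-10) with THZ531, -1.09 ± 0.18 (adjusted p = 9.87e-06) with AZ5576 and -0.82 ± 0.17 (adjusted p = 4.92e-04) with YKL5124. MED9, a small subunit of the same module, was measured at 18.6, 23.3 and 20.01 CPM in the DMSO libraries, at 9.89, 9.29 and 10.2 with AZ5576, at 4.68, 4.40 and 5.02 with THZ531 and at 11, 10.7 and 11.6 with YKL5124. Again every inhibitor library was below DMSO and the THZ531 libraries were the lowest. The values were -2.12 ± 0.14 (adjusted p = 4.09e-14), -1.05 ± 0.12 (adjusted p = 1.94e-08) and -0.89 ± 0.11 (adjusted p = 6.26e-07) in the same order of inhibitors.

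MED4, which forms a heterodimer with MED9, moved the other way with THZ531 and was measured at 73.1, 66.2 and 74.6 CPM in the DMSO libraries, at 69.6, 62.5 and 65.5 with AZ5576, at 147, 146 and 159 with THZ531 and at 58.8, 68.2 and 67.6 with YKL5124. The THZ531 libraries stood apart, above the other 9. Relative to DMSO the log2 fold change was 1.08 ± 0.07 (adjusted p = 7.07e-14) with THZ531, -0.11 ± 0.07 (adjusted p = 0.253) with AZ5576 and -0.13 ± 0.07 (adjusted p = 0.217) with YKL5124. MED10 was measured at 25.7, 25.8 and 29 CPM in the DMSO libraries, at 16.1, 17 and 13 with AZ5576, at 34.3, 36.1 and 33 with THZ531 and at 23.8, 18.6 and 20.6 with YKL5124. AZ5576 gave the lowest and THZ531 the highest values, with no overlap with DMSO. Its log2 fold changes were -0.83 ± 0.11 (adjusted p = 3.65e-07) with AZ5576, -0.36 ± 0.10 (adjusted p = 0.0104) with YKL5124, which was lost without DMSO replicate 3 or YKL5124 replicate 2, and 0.36 ± 0.10 (adjusted p = 0.00206) with THZ531, which became -0.01 under Drosophila scaling.

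MED19, MED21 and MED26 were higher with THZ531 (0.72, 0.79 and 0.86). MED26 recruits elongation factors to Mediator, and it was lower with AZ5576 (-0.29), a call lost without DMSO replicate 1 or 2 or AZ5576 replicate 1 or 3. The last exon of its counted transcript overlaps another gene on the same strand, so both MED26 values are uncertain. MED21 was lower with YKL5124 (-0.47), a call that did not survive leaving out any 1 DMSO, THZ531 or YKL5124 library (highest adjusted p 0.145). MED1, which binds nuclear receptors, was lower with THZ531 alone among the inhibitors (-0.50). MED31 was called in none of the 3, and neither was MED14, the scaffold that joins the modules, which was measured at 26, 27 and 25.6 CPM in the DMSO libraries, at 26.6, 29.1 and 27.2 with AZ5576, at 28.1, 25.4 and 26.3 with THZ531 and at 25.9, 26 and 27.3 with YKL5124. All 4 groups overlapped for MED14.

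In the upper tail, MED27 was measured at 110.0, 102 and 102 CPM in the DMSO libraries, at 127, 111 and 119.7 with AZ5576, at 82.8, 86.3 and 85.1 with THZ531 and at 114, 119 and 128 with YKL5124. The THZ531 libraries were below DMSO and those of the other inhibitors above it. On the log2 scale the change was -0.31 ± 0.07 (adjusted p = 2.80e-04) with THZ531, 0.19 ± 0.07 (adjusted p = 0.0233) with AZ5576 and 0.20 ± 0.07 (adjusted p = 0.0263) with YKL5124. The rises were small: that with AZ5576 was lost without DMSO replicate 2 or 3 or AZ5576 replicate 1 or 3, and that with YKL5124 without DMSO replicate 2 or 3 or YKL5124 replicate 2 or 3. MED29 was lower with THZ531 (-1.11) and AZ5576 (-0.35). MED28 and MED30 were higher with THZ531 (0.37 and 0.35), and the MED30 call was lost without DMSO replicate 2 or THZ531 replicate 2 or 3 and turned to -0.02 under Drosophila scaling.

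The Mediator tail is the main contact of activators. Of its 5 genes, 2 were higher and 1 lower with AZ5576, 3 higher and 1 lower with THZ531, and none was called with YKL5124. MED25, a target of viral and cellular activation domains, was measured at 12.4, 7.98 and 10.9 CPM in the DMSO libraries, at 13.7, 13.1 and 13.7 with AZ5576, at 17.5, 19.9 and 20.3 with THZ531 and at 10.3, 9.02 and 11.4 with YKL5124. The THZ531 libraries were the highest, and the AZ5576 libraries exceeded DMSO narrowly. The log2 fold change was 0.87 ± 0.13 (adjusted p = 1.01e-06) with THZ531 and 0.36 ± 0.14 (adjusted p = 0.0319) with AZ5576, and the latter was lost without DMSO replicate 2 or 3 or AZ5576 replicate 1 or 3 (highest adjusted p 0.202). MED24 was higher with AZ5576 (0.26), a call lost without AZ5576 replicate 1, and with THZ531 (0.22), lost without DMSO replicate 2 or THZ531 replicate 2 or 3 and -0.15 under Drosophila scaling. MED23 was measured at 20.7, 20.1 and 21.3 CPM in the DMSO libraries, at 12.9, 9.49 and 11.8 with AZ5576, at 25.6, 30.9 and 27 with THZ531 and at 14.3, 18.8 and 20.4 with YKL5124. It was lowest with AZ5576, at -0.82 ± 0.12 (adjusted p = 4.28e-06), and highest with THZ531, at 0.43 ± 0.11 (adjusted p = 0.00136), and YKL5124 overlapped DMSO. The counted row ends 12772 bases before the gene's end, and with the row at the 3' end the values were 0.19 ± 0.33 (adjusted p = 0.686) and 0.36 ± 0.33 (adjusted p = 0.352), neither of them called. MED15, the contact of sterol-responsive factors, was lower with THZ531 (-0.57), and MED16 was called in none of the 3 comparisons.

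In the kinase module, 3 of 6 tested genes were higher and none lower with AZ5576, 3 higher and 2 lower with THZ531, and 1 higher with YKL5124. With THZ531 the paralogues MED13 and MED13L were called in opposite directions. MED13, which tethers the module to the core (chr17:61942605-62065282, minus strand), was measured at 40.5, 35.8 and 38.8 CPM in the DMSO libraries, at 32.4, 38.6 and 37.3 with AZ5576, at 9.23, 9.36 and 8.11 with THZ531 and at 43.6, 40.2 and 44.8 with YKL5124. Those of THZ531 were far below the other 9 libraries. The fitted log2 change was -2.11 ± 0.11 (adjusted p = 1.72e-16) with THZ531, -0.11 ± 0.09 (adjusted p = 0.348) with AZ5576 and 0.16 ± 0.08 (adjusted p = 0.199) with YKL5124. Summed over all rows of the gene, the THZ531 value was 0.18 and not called. Its paralogue MED13L was measured at 92.8, 85.9 and 92.5 CPM in the DMSO libraries, at 115, 117 and 107 with AZ5576, at 109, 102 and 99.1 with THZ531 and at 104, 110.4 and 95.5 with YKL5124. Every inhibitor library was above the DMSO libraries. MED13L was the one member called higher in all 3 comparisons, at 0.32 ± 0.07 (adjusted p = 4.35e-04) with AZ5576, 0.19 ± 0.07 (adjusted p = 0.0167) with THZ531 and 0.19 ± 0.07 (adjusted p = 0.0453) with YKL5124. The THZ531 call was lost without DMSO replicate 2 or THZ531 replicate 1 or 2 and became -0.17 under Drosophila scaling, and the YKL5124 call was lost without any 1 DMSO library, AZ5576 replicate 1 or YKL5124 replicate 1 or 2.

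CDK19, one of the alternative kinases, was measured at 44.2, 46.2 and 46.7 CPM in the DMSO libraries, at 55.2, 63.3 and 49.3 with AZ5576, at 29.5, 33 and 33.3 with THZ531 and at 49.9, 48.7 and 48.5 with YKL5124. The AZ5576 libraries were above DMSO, the THZ531 libraries below it and the YKL5124 libraries just above it, none of the 3 groups overlapping DMSO. Its log2 fold change was 0.27 ± 0.08 (adjusted p = 0.00823) with AZ5576, -0.51 ± 0.09 (adjusted p = 7.38e-06) with THZ531 and 0.10 ± 0.08 (adjusted p = 0.428) with YKL5124. CDK8, its paralogue, was measured at 4.81, 4.65 and 4.55 CPM in the DMSO libraries, at 4.47, 5.14 and 3.75 with AZ5576, at 6.11, 5.17 and 4.70 with THZ531 and at 5.20, 4.09 and 4.57 with YKL5124. All 4 groups overlapped, and CDK8 was called in none of the 3, at -0.11 ± 0.18 (adjusted p = 0.649), 0.18 ± 0.18 (adjusted p = 0.396) and -0.03 ± 0.18 (adjusted p = 0.938) for AZ5576, THZ531 and YKL5124.

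CCNC, the cyclin partner of both kinases, was measured at 49.8, 54.8 and 53.3 CPM in the DMSO libraries, at 55.5, 61.5 and 58.3 with AZ5576, at 64.3, 67.8 and 69.6 with THZ531 and at 51.6, 55 and 52 with YKL5124. THZ531 gave the highest values and AZ5576 the next, and the YKL5124 libraries overlapped DMSO. Relative to DMSO the log2 fold change was 0.36 ± 0.07 (adjusted p = 8.65e-05) with THZ531, 0.14 ± 0.07 (adjusted p = 0.114) with AZ5576 and 0.01 ± 0.07 (adjusted p = 0.95) with YKL5124, the first of these turning to -0.01 under Drosophila scaling. MED12, which activates the kinase, was measured at 11.5, 11.4 and 11.9 CPM in the DMSO libraries, at 16.4, 15.8 and 15 with AZ5576, at 17.5, 19.6 and 17.6 with THZ531 and at 13.2, 10.9 and 12.9 with YKL5124. AZ5576 and THZ531 libraries were all above DMSO, and YKL5124 libraries overlapped it. The values were 0.44 ± 0.11 (adjusted p = 0.00257) with AZ5576, 0.65 ± 0.11 (adjusted p = 9.21e-06) with THZ531 and 0.08 ± 0.12 (adjusted p = 0.692) with YKL5124. Neither call was kept under Drosophila scaling. MED12L did not reach 1 CPM in any library, with at most 0.392 CPM, and was not tested.

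**Figure D2:**
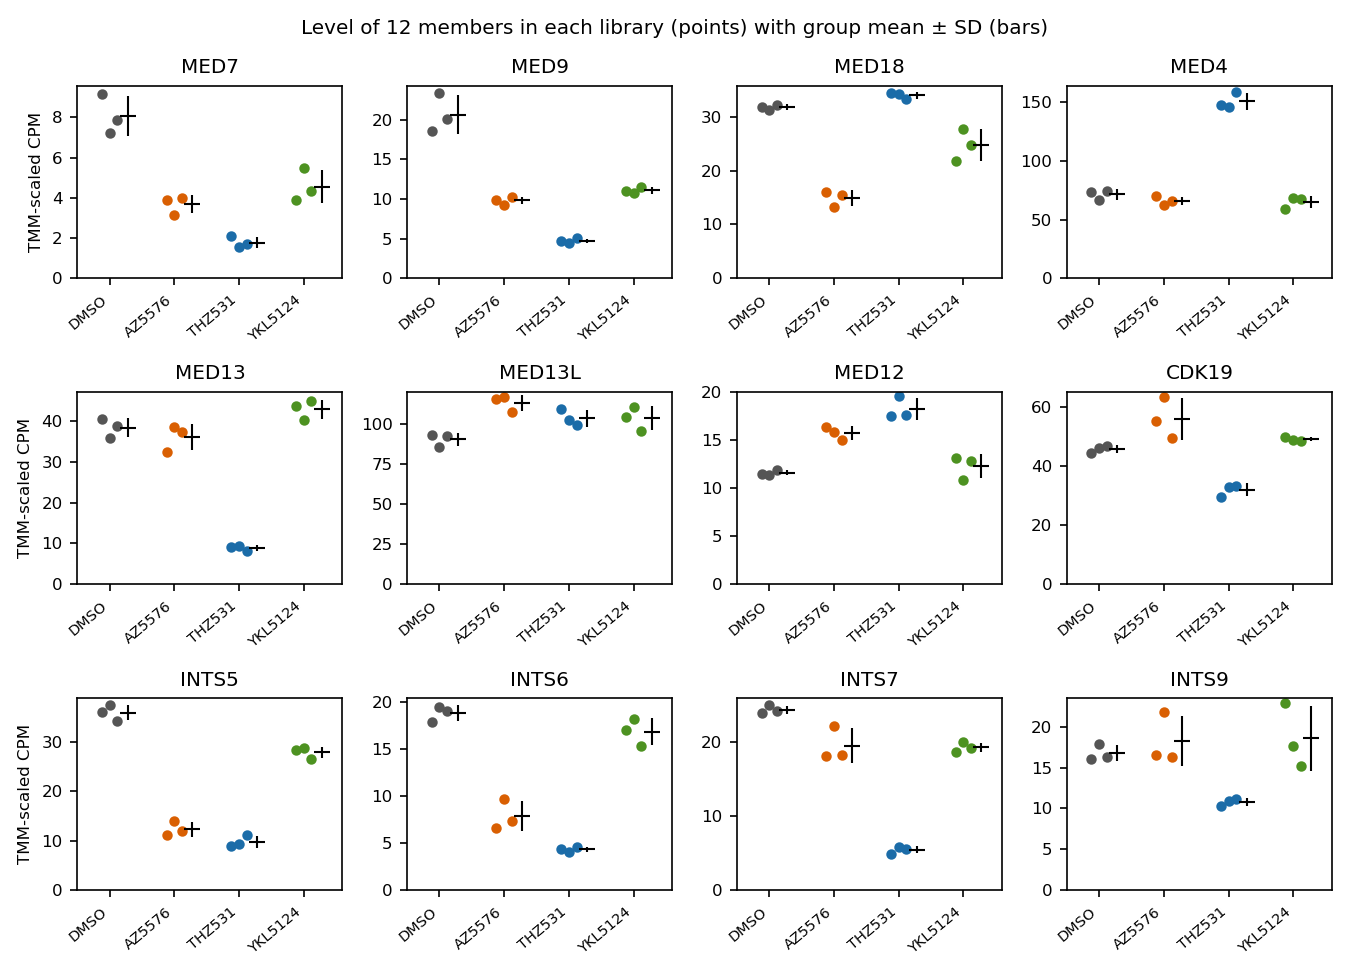
Level of 12 members in each of the 12 libraries (y axis, TMM-scaled CPM, from 0; x axis, the 4 groups). Points are libraries, and bars beside them are the group mean ± SD over 3 libraries. MED7, MED9, INTS5 and INTS7 are below DMSO in every inhibitor library, and MED4 is high in the THZ531 libraries alone.

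Among Integrator genes, the largest falls were those of INTS7 (backbone), INTS6 (phosphatase module) and INTS5 (shoulder) with THZ531, and of INTS5 and INTS6 with AZ5576. INTS5, a shoulder subunit beside INTS8, which contacts PP2A (chr11:62646848-62653302, minus strand), was measured at 36, 37.3 and 34.3 CPM in the DMSO libraries, at 11.1, 14 and 11.9 with AZ5576, at 8.97, 9.36 and 11.2 with THZ531 and at 28.4, 28.7 and 26.5 with YKL5124. Every inhibitor library was below every DMSO library, and the AZ5576 and THZ531 libraries were far below. On the log2 scale the change was -1.86 ± 0.11 (adjusted p = 3.27e-15) with THZ531, -1.57 ± 0.10 (adjusted p = 2.24e-13) with AZ5576 and -0.37 ± 0.09 (adjusted p = 0.00329) with YKL5124. INTS6, which joins the phosphatase to the complex (chr13:51354077-51454264, minus strand), was measured at 17.9, 19.5 and 19.1 CPM in the DMSO libraries, at 6.62, 9.69 and 7.33 with AZ5576, at 4.42, 4.07 and 4.59 with THZ531 and at 17.1, 18.1 and 15.3 with YKL5124. THZ531 gave the lowest values and AZ5576 the next, and YKL5124 libraries overlapped DMSO. Its log2 fold changes were -2.10 ± 0.15 (adjusted p = 1.95e-13) with THZ531, -1.32 ± 0.13 (adjusted p = 1.39e-09) with AZ5576 and -0.16 ± 0.11 (adjusted p = 0.341) with YKL5124. INTS8 was lower with THZ531 (-0.54).

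In the backbone, INTS7 (chr1:211940399-212035542, minus strand) was measured at 23.9, 24.9 and 24.1 CPM in the DMSO libraries, at 18.1, 22.1 and 18.2 with AZ5576, at 4.94, 5.83 and 5.55 with THZ531 and at 18.6, 19.9 and 19.2 with YKL5124. Every inhibitor library was below DMSO, and THZ531 stood apart from the other inhibitors. The log2 fold change was -2.15 ± 0.12 (adjusted p = 2.95e-15) with THZ531, -0.35 ± 0.10 (adjusted p = 0.00534) with AZ5576 and -0.33 ± 0.10 (adjusted p = 0.0134) with YKL5124, a call that DESeq2 did not make. INTS2 was lower with THZ531 alone of the 3 (-1.10). INTS1, the largest subunit and the base of the backbone, was measured at 14.3, 11.7 and 16.6 CPM in the DMSO libraries, at 19, 14.6 and 19.3 with AZ5576, at 19.2, 18.7 and 14.7 with THZ531 and at 16, 12.8 and 16.8 with YKL5124. The groups overlapped, and the call with AZ5576, at 0.34 ± 0.13 (adjusted p = 0.0388), was lost without DMSO replicate 1 or 2 or AZ5576 replicate 1 or 3 and under Drosophila scaling.

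The cleavage module holds the endonuclease, and of its 3 genes 1 was higher with AZ5576, 1 higher and 1 lower with THZ531, and none was called with YKL5124. INTS11, the catalytic subunit, was measured at 30.5, 26 and 31 CPM in the DMSO libraries, at 36.4, 34.6 and 41.6 with AZ5576, at 40.03, 36.1 and 35.9 with THZ531 and at 24.8, 35.9 and 34 with YKL5124. The AZ5576 and THZ531 libraries were above DMSO, and those of YKL5124 overlapped it. The fitted log2 change was 0.37 ± 0.11 (adjusted p = 0.00525) with AZ5576, lost without AZ5576 replicate 3, 0.35 ± 0.11 (adjusted p = 0.00544) with THZ531, lost without THZ531 replicate 1, and 0.12 ± 0.11 (adjusted p = 0.464) with YKL5124. The THZ531 value became -0.02 under Drosophila scaling, and the last exon of the counted transcript overlaps PUSL1 on the other strand, so the counts of that row are uncertain, as the strand used in counting is not stated. Last exons of INTS4, INTS8 and MED31 also overlap another gene's on the other strand. That of MED26 overlaps AC008764.4 on the same strand and AC008764.8 on the other, so the counts of its row are uncertain whichever strand was counted. INTS9, the inactive partner of INTS11, was measured at 16.1, 17.9 and 16.3 CPM in the DMSO libraries, at 16.6, 21.8 and 16.3 with AZ5576, at 10.3, 10.9 and 11.2 with THZ531 and at 22.9, 17.6 and 15.2 with YKL5124. Values with THZ531 were below all others. The values were -0.63 ± 0.14 (adjusted p = 2.52e-04) with THZ531, 0.08 ± 0.13 (adjusted p = 0.643) with AZ5576 and 0.13 ± 0.12 (adjusted p = 0.514) with YKL5124. INTS4, the scaffold of the module, was measured at 5.47, 3.42 and 4.71 CPM in the DMSO libraries, at 4.78, 5.74 and 4.33 with AZ5576, at 5.07, 4.62 and 4.06 with THZ531 and at 4.84, 4.47 and 3.66 with YKL5124. All groups overlapped, and INTS4 was called in none of the 3, at 0.06 ± 0.19 (adjusted p = 0.821) with AZ5576, -0.01 ± 0.20 (adjusted p = 0.965) with THZ531 and -0.11 ± 0.19 (adjusted p = 0.759) with YKL5124.

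In the auxiliary module of INTS10, INTS13 and INTS14, 1 gene was higher and 1 lower with THZ531, and none was called with the other inhibitors. INTS10 was measured at 23.7, 17.9 and 22.4 CPM in the DMSO libraries, at 19.3, 15.6 and 18.7 with AZ5576, at 91, 83.3 and 87.2 with THZ531 and at 24.7, 24.8 and 23.2 with YKL5124. The THZ531 libraries stood far above the other 9. Relative to DMSO the log2 fold change was 2.02 ± 0.09 (adjusted p = 6.29e-18) with THZ531, -0.23 ± 0.10 (adjusted p = 0.0761) with AZ5576 and 0.17 ± 0.10 (adjusted p = 0.232) with YKL5124. As for MED17, this rise belongs to a row inside the gene. INTS14 was lower with THZ531 (-1.09), and INTS13 was called in none of the 3 comparisons. INTS12, a subunit with a PHD finger, was measured at 12.9, 12.7 and 15.9 CPM in the DMSO libraries, at 11.6, 8.11 and 12.5 with AZ5576, at 18.3, 20.6 and 19.5 with THZ531 and at 9.92, 11.9 and 13.5 with YKL5124. The THZ531 libraries were the highest and the AZ5576 libraries lay below DMSO. Its values were 0.49 ± 0.13 (adjusted p = 0.00145) with THZ531 and -0.31 ± 0.14 (adjusted p = 0.0719) with AZ5576, and the THZ531 call was lost under library-size and Drosophila scaling. INTS3, which also belongs to a single-stranded DNA binding complex, was called in none, and its last exon overlaps SLC27A3 on the same strand.

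The 3 comparisons with DMSO share the 3 DMSO libraries, so the patterns across them are listed as a description only. MED7, MED8, MED9, INTS5 and INTS7 were lower in all 3, and MED13L was higher in all 3. CDK8, MED14, MED16, MED31, INTS3, INTS4 and INTS13 were called in none. MED6, MED10, MED17, MED23 and MED26 were lower with AZ5576 and higher with THZ531, and CDK19 and MED27 were higher with AZ5576 and lower with THZ531. At the row of the gene's 3' end, the THZ531 rises of MED17 and MED23 and the AZ5576 fall of MED23 were not called. Under Drosophila scaling the THZ531 rises of MED6 and MED10 turned. The THZ531 rise of MED23, the AZ5576 rises of CDK19 and MED27 and the rises of MED13L lost their calls there. The AZ5576 fall of MED26 depended on single libraries. The share of all genes with each pattern is not given.

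Inhibitors were also contrasted directly in the same fit. Between AZ5576 and THZ531, 10 Mediator genes were higher with AZ5576 and 12 lower, and 6 Integrator genes were higher and 2 lower, against 55.0% of all genes called, 27.8% higher and 27.1% lower. The largest differences were -2.92 ± 0.19 (adjusted p = 8.99e-14) for MED17, -2.25 ± 0.10 (adjusted p = 1.61e-18) for INTS10, 2.01 ± 0.11 (adjusted p = 1.18e-15) for MED13 and 1.80 ± 0.13 (adjusted p = 7.37e-13) for INTS7, on the log2 scale with AZ5576 minus THZ531. At the row of the gene's 3' end the MED17 difference was -1.32 ± 0.21 (adjusted p = 3.32e-06) and that of INTS10 was 0.24 ± 0.10 (adjusted p = 0.0403), and with all rows summed that of MED13 was -0.30. MED8 and INTS5, which fell with both inhibitors, differed by -0.01 ± 0.06 (adjusted p = 0.956) and 0.28 ± 0.13 (adjusted p = 0.0629).

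Between AZ5576 and YKL5124, 3 Mediator genes were higher with AZ5576 and 6 lower, and 3 Integrator genes were lower and none higher, against 15.8% called over all genes, 6.23% higher and 9.6% lower. Without AZ5576 replicate 1 or YKL5124 replicate 2, 1 Mediator gene was higher, and without AZ5576 replicate 3, 3 were lower. The largest differences, AZ5576 minus YKL5124, were -1.21 ± 0.11 (adjusted p = 1.26e-09) for INTS5, -1.16 ± 0.13 (adjusted p = 1.86e-07) for INTS6, -0.78 ± 0.25 (adjusted p = 0.0288) for MED17 and -0.71 ± 0.10 (adjusted p = 1.02e-05) for MED18. That of MED17 was lost when any AZ5576 library or YKL5124 replicate 1 or 2 was left out. MED22 was higher with AZ5576, at 0.59 ± 0.15 (adjusted p = 0.00698). For MED7 and MED9, which fell with both, the difference was -0.27 ± 0.20 (adjusted p = 0.382) and -0.16 ± 0.13 (adjusted p = 0.431). Between THZ531 and YKL5124, 14 Mediator genes were higher with THZ531 and 11 lower, and 2 Integrator genes were higher and 8 lower, against 61.0% of all genes, 30.5% in each direction. The largest, THZ531 minus YKL5124, were -2.27 ± 0.11 (adjusted p = 3.43e-17) for MED13, 2.14 ± 0.17 (adjusted p = 6.10e-12) for MED17, -1.94 ± 0.15 (adjusted p = 2.46e-12) for INTS6 and 1.85 ± 0.09 (adjusted p = 5.89e-17) for INTS10. With all rows summed that of MED13 was 0.05, and at the 3' end row those of MED17 and INTS10 were 0.61 ± 0.19 (adjusted p = 0.00603) and -0.24 ± 0.10 (adjusted p = 0.0302).

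Other genes of the machinery were read from 4 lists. Their counts stand beside 30.4% of all genes higher and 32.9% lower with THZ531. Those shares were 18.6% and 23.1% with AZ5576, and 7.25% and 13.5% with YKL5124. Of 13 RNA polymerase II subunit genes, 10 were higher and none lower with THZ531, 4 higher and 1 lower with AZ5576, and 1 higher with YKL5124. Scaled to Drosophila counts, 2 were higher and 1 lower with THZ531, and none higher and 3 lower with AZ5576. Of all 15831 genes, 1116 were then higher and 7354 lower with THZ531, and 517 higher and 4516 lower with AZ5576. POLR2A, the largest subunit, was higher with THZ531 by 1.06 ± 0.06 (adjusted p = 1.89e-15) and POLR2F, a small shared subunit, by 0.77 ± 0.07 (adjusted p = 2.87e-10). Of 8 general transcription factor genes, 3 were higher and 3 lower with THZ531, 3 higher and 4 lower with AZ5576, and 1 lower with YKL5124. GTF2E1, a TFIIE subunit, had a THZ531 value of -3.17 ± 0.14 (adjusted p = 5.58e-18) and GTF2A1, of TFIIA, of -0.91 ± 0.10 (adjusted p = 6.25e-09).

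Of 10 genes whose products work with Integrator, 3 were higher and 3 lower with THZ531, 3 higher and 3 lower with AZ5576, and 1 lower with YKL5124. NABP1, a single-stranded DNA binding partner of INTS3, had a THZ531 value of -3.08 ± 0.25 (adjusted p = 9.58e-12), and WDR73, a partner of the cleavage module, of -1.65 ± 0.10 (adjusted p = 7.02e-15). Of 11 genes for small nuclear RNA transcription and cap binding, 4 were higher and 4 lower with THZ531, 5 lower with AZ5576, and 1 higher and 2 lower with YKL5124. SNAPC3, of the complex that binds small nuclear RNA promoters, was higher with THZ531 by 1.10 ± 0.09 (adjusted p = 1.99e-11) and SRRT, which couples the cap to RNA processing, by 0.85 ± 0.07 (adjusted p = 2.52e-11). With the row at the gene's 3' end, the SNAPC3 value was -0.50 instead. Under Drosophila scaling the 3 lists after the polymerase subunits had 0, 1 and 2 genes higher and 4, 5 and 6 lower with THZ531. The background for these counts is 1116 higher and 7354 lower of all 15831 genes under that scaling, not the shares given above. The 8 genes named from the 4 lists kept their direction and call.

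The counts are given per transcript, and a gene can have several rows, each named for a transcript and carrying no coordinates. The place of a row was taken from the annotated 3' end of its transcript. Rows were tested in a fit of their own over 63375 rows, in which 242 rows of 46 members passed the filter, 44 members having more than 1. The CPM of rows use the summed counts of those rows and cannot be compared with the gene values above. With THZ531, 6 members had a row called with a sign opposite to that of the row used for the gene, whether or not the latter was called: MED13, MED15, MED27, INTS4, INTS7 and INTS10. With AZ5576 these were CCNC, INTS4 and INTS11, and with YKL5124 INTS11. These are 13.6%, 6.82% and 2.27% of the 44 members with several rows, beside 12.7%, 6.6% and 3.29% of 10211 genes of any kind with several rows tested, so the members were close to the background. The opposite rows of MED15, MED27 and INTS7 passed the low-count filter only through the THZ531 libraries, where they were high.

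The last 30 bases of transcripts of MED13, MED27 and INTS7 are shown as the annotated ends by which their rows were placed. A polyadenylation hexamer (AATAAA or ATTAAA) is in capitals, and where the reads themselves ended is not known. They were read from the GENCODE v29 transcripts (GRCh38), 5' to 3'. The hexamer occurs in the last 30 bases of 49.2% of the 52845 transcripts with at least 120 counts.
MED13, internal end (chr17:62010427-62010456, minus strand): atttacaagAATAAAttcattgagtattaa
MED13, gene end (chr17:61942605-61942634, minus strand): aaatggAATAAAttattcatgaagccttca
MED27, internal end (chr9:132073351-132073380, minus strand): agaatgaaagAATAAAtgaatcgaagcgtt
MED27, gene end (chr9:131860107-131860136, minus strand): taagcAATAAAccttttgtatcctggataa
INTS7, internal end (chr1:211966124-211966153, minus strand): tgagttaatgatacaATTAAActtgaactt
INTS7, gene end (chr1:211940401-211940430, minus strand): tttttaAATAAAtatctgtttctttgcttg
A match is a description of these letters and not of use of the site.

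In MED13, a transcript of 3 exons that ends 67822 bases before the gene's 3' end was counted at 0.8, 0.486 and 0.714 CPM with DMSO, 0.427, 0.0587 and 0.395 with AZ5576, 8.61, 10.5 and 11.2 with THZ531 and 0.436, 0.39 and 0.4 with YKL5124. The row at the gene's end was counted at 12.2, 10.8 and 11.8 with DMSO and 2.68, 2.72 and 2.38 with THZ531. The internal row was thus the higher of the pair with THZ531 and the lower with DMSO. The log2 fold change of the internal row was 3.89 ± 0.18 (adjusted p = 1.00e-18) with THZ531 and -0.95 ± 0.31 (adjusted p = 0.0199) with AZ5576, and that of the end row with THZ531 was -2.16 ± 0.11 (adjusted p = 2.05e-17). Another pair of MED13 rows, 86672 and 86693 bases before the end, were also higher with THZ531, at 0.79 ± 0.24 and 1.17 ± 0.37.

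In INTS7, a transcript annotated as a retained intron that ends 25725 bases before the gene's 3' end was counted at 0.133, 0.143 and 0.0238 CPM with DMSO and 0.491, 0.831 and 0.875 with THZ531. The row 2 bases from the gene's end was at 6.98, 7.40 and 7.07 with DMSO and 1.36, 1.63 and 1.63 with THZ531. The log2 fold change was 2.87 ± 0.44 for the internal row and -2.20 ± 0.13 (adjusted p = 6.73e-16) for the end row, though the internal row held few counts. The internal row passed the low-count filter only through the THZ531 libraries, so it could be tested only because it was high there. In MED27, a transcript that ends 213244 bases before the gene's end was at 0.0889, 0.0572 and 0.238 CPM with DMSO and 0.717, 0.575 and 0.656 with THZ531. The difference was 2.28 ± 0.42, and the row at the gene's end had -0.36 ± 0.07 (adjusted p = 7.99e-05). A further MED27 row, 171779 bases before the end, was at 0.0889, 0.0286 and 0.0476 CPM with DMSO and 0.83, 0.799 and 1.22 with THZ531. Both internal MED27 rows also passed the low-count filter only through the THZ531 libraries, so their direction was fixed by that filter.

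For MED17 and INTS10 the row with the most counts lay inside the gene and rose with THZ531, and they, with INTS6, were picked for this account after their values were seen. The used rows of MED21, MED23, MED25 and MED6, also higher with THZ531, end 36594, 12772, 3404 and 2332 bases before the end of their genes. Those of INTS6, MED1 and INTS8, lower with THZ531, end 7488, 2316 and 1296 bases before it. The counted MED17 row is of a retained-intron transcript that ends 25167 bases before the gene's 3' end, and it was at 1.38, 1.54 and 1.26 CPM with DMSO and 3.93, 3.93 and 4.22 with THZ531. The row at the gene's end was at 2.20, 2.00 and 2.09 with DMSO, 0.759, 0.528 and 0.766 with AZ5576, 1.70, 1.53 and 1.97 with THZ531 and 1.16, 0.975 and 1.40 with YKL5124. There the THZ531 libraries lay just below DMSO and AZ5576 and YKL5124 well below. With the row at the 3' end used for the gene, MED17 had -0.21 ± 0.17 (adjusted p = 0.27) with THZ531, -1.54 ± 0.20 (adjusted p = 1.92e-07) with AZ5576 and -0.83 ± 0.17 (adjusted p = 7.22e-04) with YKL5124.

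The counted INTS10 row is also of a retained-intron transcript, which ends 27591 bases before the gene's end. It was at 7.11, 5.37 and 6.78 CPM with DMSO and 26.4, 24.2 and 25.5 with THZ531, where the row at the gene's end was at 7.33, 8.46 and 8.21 with DMSO and 6.00, 6.26 and 6.66 with THZ531. With the end row used for the gene, INTS10 was lower with THZ531, at -0.28 ± 0.09 (adjusted p = 0.0103), instead of higher. Not every internal row of INTS10 rose: 1 that ends 14566 bases before the gene's end was at 3.15, 2.74 and 3.00 CPM with DMSO, 0.925, 0.763 and 0.914 with AZ5576 and 0.981, 1.44 and 1.28 with THZ531, log2 fold changes of -1.74 ± 0.18 and -1.25 ± 0.17. In INTS6 the internal row furthest from the end was lowest with AZ5576. This transcript of 3 exons that ends 82349 bases before the gene's end was at 5.26, 4.57 and 4.71 CPM with DMSO, 0.878, 1.06 and 1.11 with AZ5576, 3.40, 2.62 and 3.13 with THZ531 and 5.08, 3.29 and 4.30 with YKL5124. Its log2 fold change was -2.27 ± 0.17 (adjusted p = 2.83e-12) with AZ5576 and -0.68 ± 0.14 (adjusted p = 1.50e-04) with THZ531, whereas the row used for the gene had -1.34 ± 0.13 (adjusted p = 1.24e-09) and -2.15 ± 0.15 (adjusted p = 4.69e-14). An INTS6 row 68926 bases before the end was at 0.511, 0.429 and 0.452 CPM with DMSO, 0.0474, 0.0587 and 0 with AZ5576, 0, 0 and 0 with THZ531 and 0.4, 0.251 and 0.05 with YKL5124. Without the DMSO libraries, where it was high, that row would not have passed the low-count filter. The difference between rows of a gene was not itself tested.

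**Figure D3:**
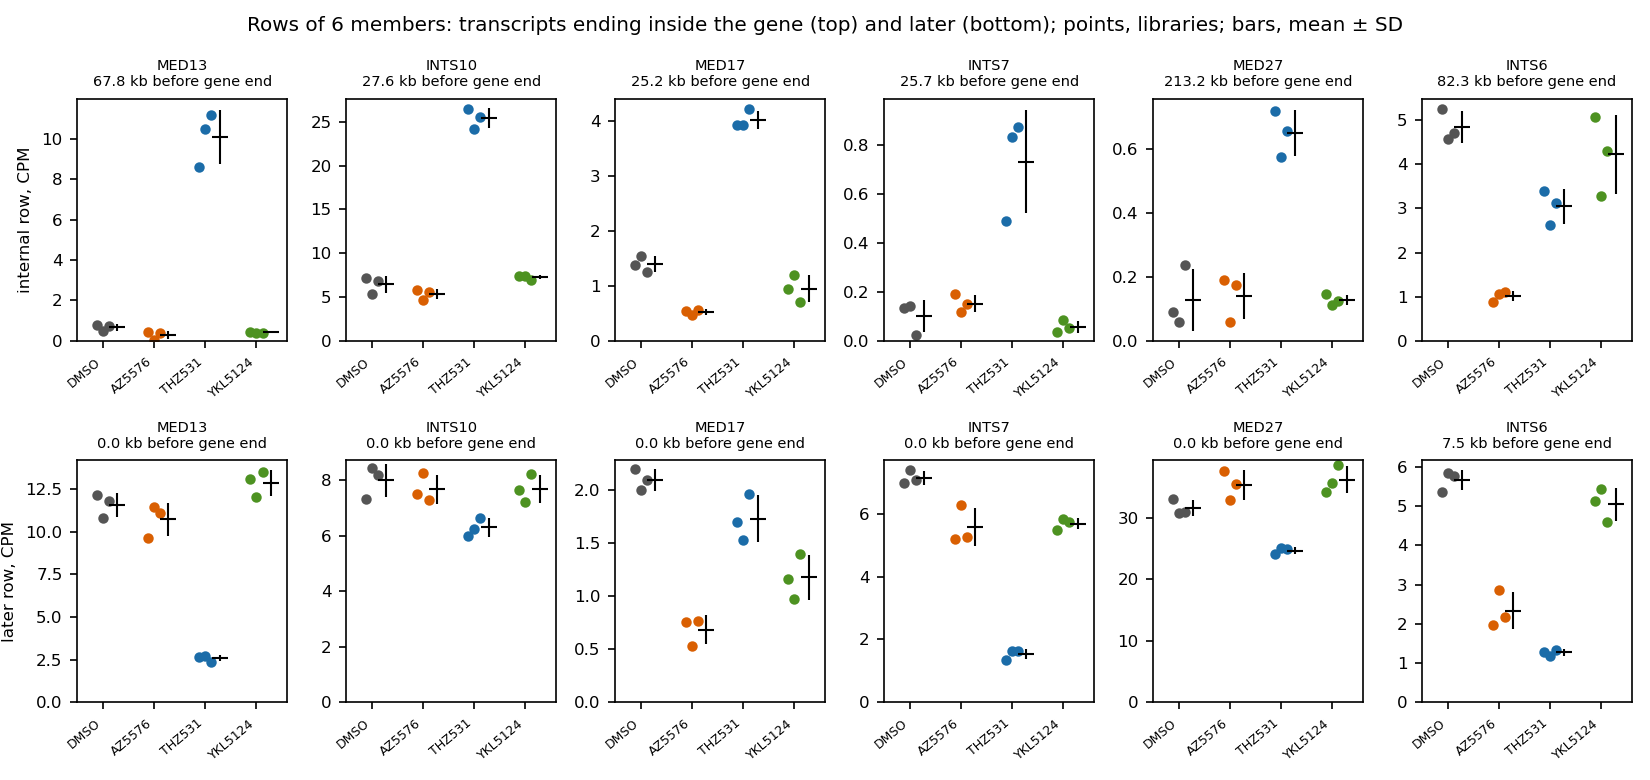
CPM of a row whose transcript ends inside the gene (top) and of a row nearer the gene's 3' end (bottom) for 6 members, with the distance to the annotated gene end above each panel. Points are libraries and bars are the mean ± SD over 3 libraries; y axes start at 0 and differ between panels. MED13, INTS7, INTS10 and MED27 are among the members with a row called opposite in sign to the row used with THZ531. Their high top row and low bottom row with THZ531 therefore follow from the choice of genes. Such a row was found in 13.6% of members and 12.7% of all genes with several rows. MED17 and INTS6 were picked after their values were seen, and for MED17 the top row is high with THZ531 while the bottom row is close to DMSO.

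In INTS4 a row of a transcript that occurs on 3 rows was at 0.778, 0.743 and 0.595 CPM with DMSO, 0.166, 0.176 and 0.222 with AZ5576 and 1.13, 1.37 and 1.09 with THZ531. AZ5576 libraries were below and THZ531 libraries above DMSO, while the row used for the gene was called in neither comparison. In INTS11 a transcript that ends 7094 bases before the gene's end was at 2.93, 4.00 and 3.52 CPM with DMSO, 2.04, 2.47 and 2.05 with AZ5576, 5.51, 4.47 and 4.06 with THZ531 and 2.80, 2.03 and 2.35 with YKL5124. That row was lower with AZ5576 and YKL5124, with log2 fold changes of -0.70 ± 0.16 and -0.55 ± 0.15, and higher with THZ531, at 0.43 ± 0.14 (adjusted p = 0.0107). In CCNC a transcript that ends 14860 bases before the gene's end was at 2.04, 1.89 and 1.93 CPM with DMSO and 0.83, 0.998 and 1.36 with AZ5576, a log2 fold change of -0.87 ± 0.19. A MED15 row without a counted read in 2 of the 3 DMSO libraries reached 0.604, 0.351 and 0.5 CPM with THZ531, and since its transcript occurs on 16 rows its place in the gene is not known. That row passed the low-count filter only through the THZ531 libraries.

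Some member rows had a transcript of their own and counts unlike any other row. Of the 32 of these whose transcript ends more than 10000 bases before the gene's end, in 17 genes, 15 were higher and 7 lower with THZ531 (median log2 fold change 0.38), none was higher and 13 lower with AZ5576 (median -0.46), and none was higher and 2 lower with YKL5124 (median -0.21). Of the 105 nearer rows, in 43 genes, 22 were higher and 38 lower with THZ531 (median -0.14), 7 higher and 31 lower with AZ5576 (median -0.14), and none higher and 19 lower with YKL5124 (median -0.12). Over all genes, 7377 rows ended that far inside, of which 30.9% were higher and 22.1% lower with THZ531 (median 0.11), 5.11% and 20.8% with AZ5576 (median -0.16) and 3.43% and 8.43% with YKL5124 (median -0.05). Of the 29327 nearer rows of all genes, 26.9% were higher and 29.4% lower with THZ531, 14.6% and 18% with AZ5576, and 4.55% and 9.65% with YKL5124. Some far rows, the internal INTS7 row and an internal MED27 row among them, passed the low-count filter only through the group where they were high. The direction of such rows was fixed by that filter, and their number was not determined. Rows of all genes went through the same filter. Rows of 1 gene can overlap and are not independent, so no test was made. An annotated gene end can also lie beyond the end in use, as for MED4, whose counted row lies 22633 bases before it and holds 99.4% of the gene's counts. That share is among the highest. Over the members, the row used held from 6.19% (INTS11) to 100% (INTS5) of the counts summed over a gene's rows. It held 10.7% for MED16, 11.6% for MED15, 14.6% for MED25, 15.1% for MED24 and 17.5% for INTS10.

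**Figure D4:**
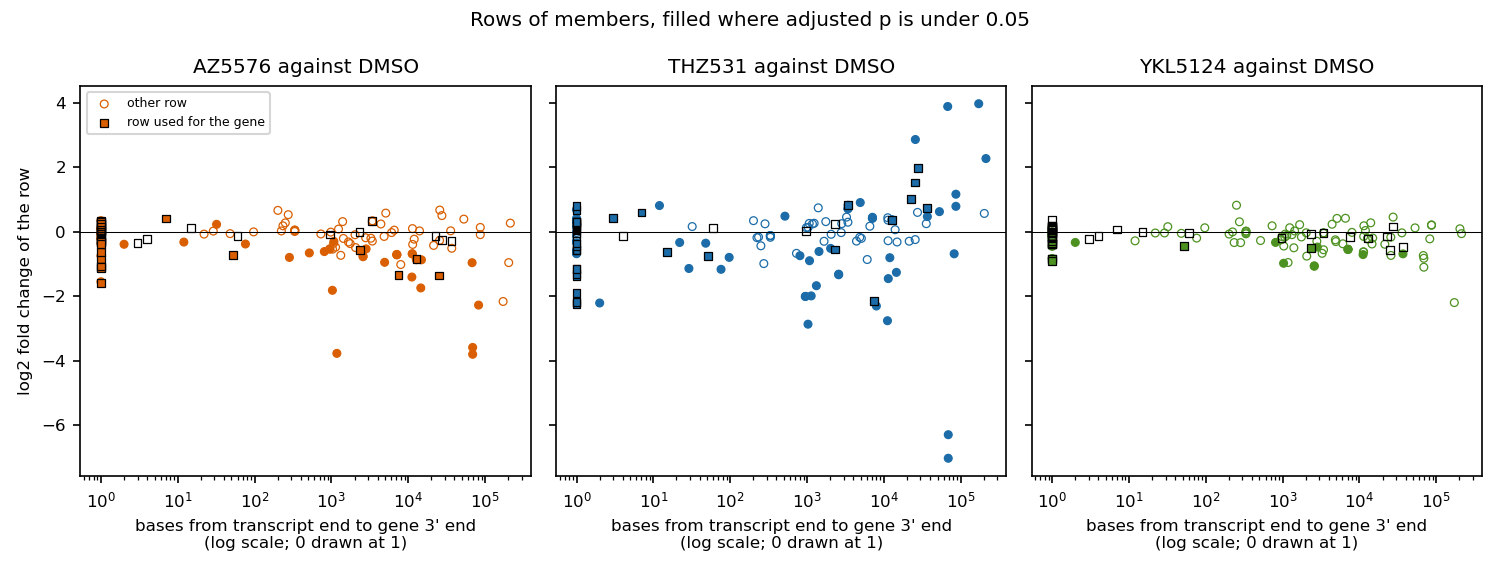
Log2 fold change of each member row (y axis) against the distance from its transcript's end to the annotated 3' end of the gene (x axis, bases, log scale, with 0 drawn at 1), for the 3 inhibitors. Squares are the rows used for the genes and circles the other rows, filled where the adjusted p was under 0.05. Beyond 10000 bases, 15 of 32 rows are called higher with THZ531 and none with AZ5576, beside 30.9% and 5.11% of such rows over all genes. Some of these rows passed the low-count filter only through the group where they were high, which fixed their direction.

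Gene length ran from 2183 to 351376 bases in Mediator (median 25589) and from 6455 to 213360 in Integrator (median 54696). Across the 46 tested members, Spearman's rho between gene length and log2 fold change was 0.36 with AZ5576, -0.02 with THZ531 and 0.52 with YKL5124. Over the 11671 protein-coding genes tested it was 0.10, -0.15 and 0.15. These correlations are across genes that share the same libraries, and genes are not independent replicates.

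Promoters are shown for those of the 5 members lower in all 3 comparisons that the RefSeq table (GRCh38.p14) holds, MED7, MED9 and INTS7. The falls of these genes differed in size, and a shared cause was not tested. The table has 40 entries for 35 members, a gene with several starts having several, and for MED7 the first of its entries is shown, whose start lies inside the GENCODE gene. Each is the 250 bases before the annotated start, with matches to 6 searched motifs in capitals, on either strand.
MED7 (chr5:157142866-157143115, minus strand): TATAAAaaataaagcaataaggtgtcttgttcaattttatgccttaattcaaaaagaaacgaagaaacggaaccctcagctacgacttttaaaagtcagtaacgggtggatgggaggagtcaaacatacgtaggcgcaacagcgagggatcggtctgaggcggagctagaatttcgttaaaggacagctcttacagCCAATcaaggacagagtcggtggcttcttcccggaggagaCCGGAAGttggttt
MED9 (chr17:17476750-17476999, plus strand): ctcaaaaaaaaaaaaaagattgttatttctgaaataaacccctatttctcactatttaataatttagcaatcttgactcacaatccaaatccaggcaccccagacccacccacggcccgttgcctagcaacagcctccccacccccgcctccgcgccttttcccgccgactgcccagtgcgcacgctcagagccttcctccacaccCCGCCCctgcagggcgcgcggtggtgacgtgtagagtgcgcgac
INTS7 (chr1:212035558-212035807, minus strand): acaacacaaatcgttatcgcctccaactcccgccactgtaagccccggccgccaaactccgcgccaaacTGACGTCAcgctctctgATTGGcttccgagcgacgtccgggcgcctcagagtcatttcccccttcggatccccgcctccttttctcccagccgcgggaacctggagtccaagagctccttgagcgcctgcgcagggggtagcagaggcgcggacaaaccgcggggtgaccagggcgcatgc
None of the 6 motifs was in all 3 windows shown. Of the 35 members, 16 held CCAAT in at least 1 entry, which 32.0% of 35116 promoters hold, 24 held the GC box GGGCGG (42.6%), 9 the ETS core CCGGAAG (8.52%), 2 the CRE TGACGTCA (1.65%), 2 the TATA box TATAAA (10.7%) and 1 the NRF1 site (1.03%). Members were counted per gene, over any of its entries, and the shares per promoter, so the units differ. These shares describe the letters in the window and not binding.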

How the data were processed

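Poly(A) 3' end SLAMseq libraries of THP-1 cells were counted per transcript by the authors, and the deposited table holds whole-number read counts for 12 libraries. Per the submitters' processing notes the tools included edgeR 3.32.1, Trim Galore 0.6.5 and bcl2fastq 2.17.1.14, and no source used here gives an aligner or the strand counted. All columns were used. Human rows were matched to GENCODE 29 by transcript, the row with the highest total was taken per gene, 94 genes with counts identical to another gene were dropped, and 5197 unnamed human rows (0.655% to 0.719% of counts) were left out. Genes were filtered with filterByExpr (minimum count 10), scaled by TMM and fitted over all 12 libraries and 4 groups with edgeR 4.0.16 (R 4.3.3, quasi-likelihood, Benjamini-Hochberg over 15831 genes). Standard errors are the log2 fold change divided by the square root of F. Rows were fitted in the same way over 63375 rows.

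Members given with all 12 values were, per comparison and complex, the 3 largest called falls and rises, the kinase module, and INTS4, INTS6, INTS9 and INTS11; MED8, MED10, MED14 and MED23 were added after their values were seen. Per pathway list, the 2 genes with the smallest adjusted p in any comparison with DMSO were named. A marker of another cell type and a transcript-end sequence are not reported here, so the markers given do not cover the whole list. Members and lists were chosen with earlier results of these data known. Replicate libraries differed by more than sampling noise (mean chi-square per gene 1.73 to 5.00). The test was also run on counts simulated from the DMSO means, and the outcome of that run is not given here. Counting error and the spread between replicates both limit the precision, and a library holds 5048321 to 12743576 counts. Alternatives were RLE, library-size and Drosophila scaling, DESeq2 1.42.0, no and stricter (1 CPM in all) filters, each library left out, a fit of the 6 libraries of a comparison alone, the replicate number as a block, rows summed per gene, the row highest in DMSO, and, added after the data were seen, the row within 1000 bases of the gene's 3' end.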

Additional observations from a re-analysis of the deposited data

How the results depend on the processing

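Of the 72 member values called against DMSO, 40 kept their direction and call under every alternative run that tested the gene. The other 32 lost the call or turned in at least 1, and 11 of these turned. The 3' end rows of MED6, MED21, MED25 and INTS6 did not pass the low-count filter, so that run did not try their calls. Scaling moved the counts of higher genes most. In the comparisons with DMSO, library-size scaling gave 2 higher Mediator and 0 higher Integrator genes with AZ5576, with 5 Integrator genes lower, 7 and 1 higher with THZ531, and 1 higher Mediator gene with YKL5124. Drosophila scaling gave 0 and 0 higher and 5 Integrator genes lower with AZ5576, 6 and 1 higher with THZ531, and 0 higher Mediator genes with YKL5124. Of all 15831 genes, library-size scaling called 1328, 2198 and 997 higher and 4743, 7263 and 2311 lower with AZ5576, THZ531 and YKL5124. Drosophila scaling called 517, 1116 and 530 of them higher and 4516, 7354 and 1985 lower. Higher Integrator genes with AZ5576 numbered 1 with DESeq2, the strict filter, summed rows and the 3' end row. Higher Mediator genes with YKL5124 numbered 0 with no filter and 1 with summed rows or the 3' end row, and DESeq2 left 1 lower Integrator gene there. Between AZ5576 and YKL5124, 1 Mediator gene was higher under both scalings, DESeq2, the 6 libraries alone and summed rows. There, 1 Integrator gene was lower with the 3' end row, a run that did not test INTS6. Between AZ5576 and THZ531, 1 Integrator gene was lower with the row highest in DMSO or at the 3' end. Between THZ531 and YKL5124, 9 Mediator genes were higher under Drosophila scaling and 1 Integrator gene with the row highest in DMSO. Leaving out 1 library moved higher Integrator genes with AZ5576 between 0 (without AZ5576 replicate 3) and 2, higher Mediator genes with AZ5576 between 3 (without AZ5576 replicate 1) and 6, and with YKL5124 between 0 and 2, and, between AZ5576 and YKL5124, higher Mediator genes between 1 and 3 and lower ones between 3 (without AZ5576 replicate 3) and 6.

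Log2 fold changes turned as follows. With library-size scaling, AZ5576 gave -0.042 for INTS9 and -0.061 for INTS4, THZ531 gave -0.072 for MED24, -0.097 for MED13L, -0.11 for CDK8 and -2.3e-04 for MED6, and YKL5124 gave -0.011 for CCNC. With Drosophila scaling, AZ5576 gave -0.091 for INTS9, -0.043 for CCNC and -0.11 for INTS4, and YKL5124 gave -0.058 for CCNC. Under the same scaling THZ531 gave -0.15 for MED24, -0.011 for CCNC, -0.17 for MED13L, -0.020 for INTS11, -0.18 for CDK8, -0.011 for MED10, -0.070 for MED6 and -0.019 for MED30. With summed rows, INTS4 had -0.026 with AZ5576 and 0.16 with THZ531, CCNC -0.030 with YKL5124, and MED13 0.18 with THZ531, -0.30 for AZ5576 minus THZ531 and 0.051 for THZ531 minus YKL5124. With the row highest in DMSO, MED17 had -0.22 and INTS10 -0.29 with THZ531, and INTS10 0.26, 0.0022 and -0.26 for AZ5576 minus THZ531, AZ5576 minus YKL5124 and THZ531 minus YKL5124. With the row at the 3' end, MED23 had 0.19 with AZ5576, MED17 -0.21, INTS10 -0.28, INTS4 9.1e-05 and SNAPC3 -0.50 with THZ531, CCNC -1.2e-04 with YKL5124, and INTS10 0.24 and -0.24 for AZ5576 minus THZ531 and THZ531 minus YKL5124. DESeq2 gave 0.0048 for INTS4 with THZ531 and 0.0027 for CDK8 with YKL5124, and CCNC with YKL5124 had -0.018 without a filter. Row choice replaces the counts by construction, and for the other settings the cause was not tested.

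Leaving out 1 library turned values that were never called: CCNC with YKL5124 ranged from -0.033 to 0.035, CDK8 from -0.18 to 0.0045 with AZ5576 and -0.11 to 0.051 with YKL5124, INTS4 from -0.090 to 0.22 with AZ5576, -0.16 to 0.15 with THZ531 and -0.26 to 0.053 with YKL5124, and INTS9 from -0.013 to 0.15 with AZ5576 and -0.031 to 0.26 with YKL5124. Same-numbered libraries of different groups deviated together with correlations of -0.10 to 0.07, none of 18 over 0.1, so the numbers were not taken to pair samples. A fit with the replicate number as a block moved no count of either complex by more than 1 and gave 4.3e-04 for INTS4 with THZ531. Depth limits the low members most: MED12L could not be tested, and AZ5576 replicate 2 held the fewest counts, 5048321.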
